A study of Arabidopsis thaliana with 12 samples.

Results

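WRKY proteins are a plant family of transcription factors, and ZAT10 (AT1G27730, listed in the gene tables under its other symbol STZ) is a zinc finger repressor of stress responses. The 6 WRKY genes described here are all those named WRKY plus a number with a single-gene probe set in the annotation used. ZAT10 was added by its locus. The 7 genes are WRKY6 (AT1G62300), WRKY20 (AT4G26640), WRKY22 (AT4G01250), WRKY42 (AT4G04450), WRKY47 (AT4G01720), WRKY53 (AT4G23810) and ZAT10, of 13355 with a single-gene probe set. Each of the 7 has 1 such probe set, so the choice of the brightest probe set per gene decided nothing. RefSeq holds 67 genes with such a WRKY symbol, and the other 61 are not analysed here. The annotation leaves 8730 of the 22746 tested probe sets unnamed, so these 61 may still have probe sets on the array. The 6 named WRKY genes thus do not stand for the family.

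The series measured transcripts in the lowest 4 cm of inflorescence stems of Arabidopsis thaliana, from ecotype Col-0 plants 12 to 17 cm tall that shared a glasshouse at 22 °C with 16 h of light. The arrays fall into 4 groups of 3: plants overexpressing the zinc finger gene C3H14 (C3H14-OE), plants overexpressing its relative C3H15 (C3H15-OE), the double mutant c3h14c3h15, and the wild type (WT). The arrays of a group are labelled as biological replicates. The sources used here do not name the promoter of the transgenes or the mutant alleles, nor say whether each overexpressor array is a separate transgenic line, so p-values measure the spread between these arrays. Stem tissue at this position lays down secondary walls, and its 3 named marker genes IRX15, IRX15L and IRX10 were bright in WT (mean log2 intensities of 8.33, 8.90 and 8.79). The 3 named anther and pollen markers were dim in every group, with summed intensities of 20.9 to 26.8 per array. In whole stem pieces, fewer cells of a type and less RNA per cell cannot be told apart.

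WRKY factors bind short promoter elements called W boxes, often in the promoters of other WRKY genes, and many respond to pathogens, wounding or ageing. WRKY53 promotes leaf senescence and takes part in basal defence. WRKY22 acts downstream of a MAP kinase cascade in the response to bacterial flagellin. WRKY6, WRKY42 and WRKY47 belong to the same subgroup (IIb) of the family. WRKY6 is linked to senescence and to phosphate transport, and WRKY42 shares the second of these roles. WRKY47 regulates cell wall genes under aluminium stress. WRKY20 belongs to group I, whose members carry a pair of WRKY domains. ZAT10 has an EAR repression motif and is induced by salt, drought, cold and wounding.

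Against WT, 1 of the 7 genes passed the test in C3H15-OE, where 6.65% of all probe sets passed (3.09% as higher). In C3H14-OE 0 of the 7 passed beside 0.044% of all probe sets, and in the double mutant 0 passed beside 5.7%. WRKY53 rose 4.00-fold in C3H15-OE. It was also 5.76-fold higher in C3H15-OE and 3.39-fold higher in C3H14-OE than in the double mutant. ZAT10 was 3.91-fold higher in C3H14-OE than in the double mutant. The other 5 WRKY genes did not pass in any of the 6 comparisons between groups. A gene passed when its adjusted p in limma, fitted to all 12 arrays and adjusted by Benjamini-Hochberg over 22746 probe sets, was under 0.05. All adjusted p-values below are from that fit, values are log2 of the deposited normalized intensity, and differences are on the log2 scale with their standard error (SE).

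**Figure D1:**
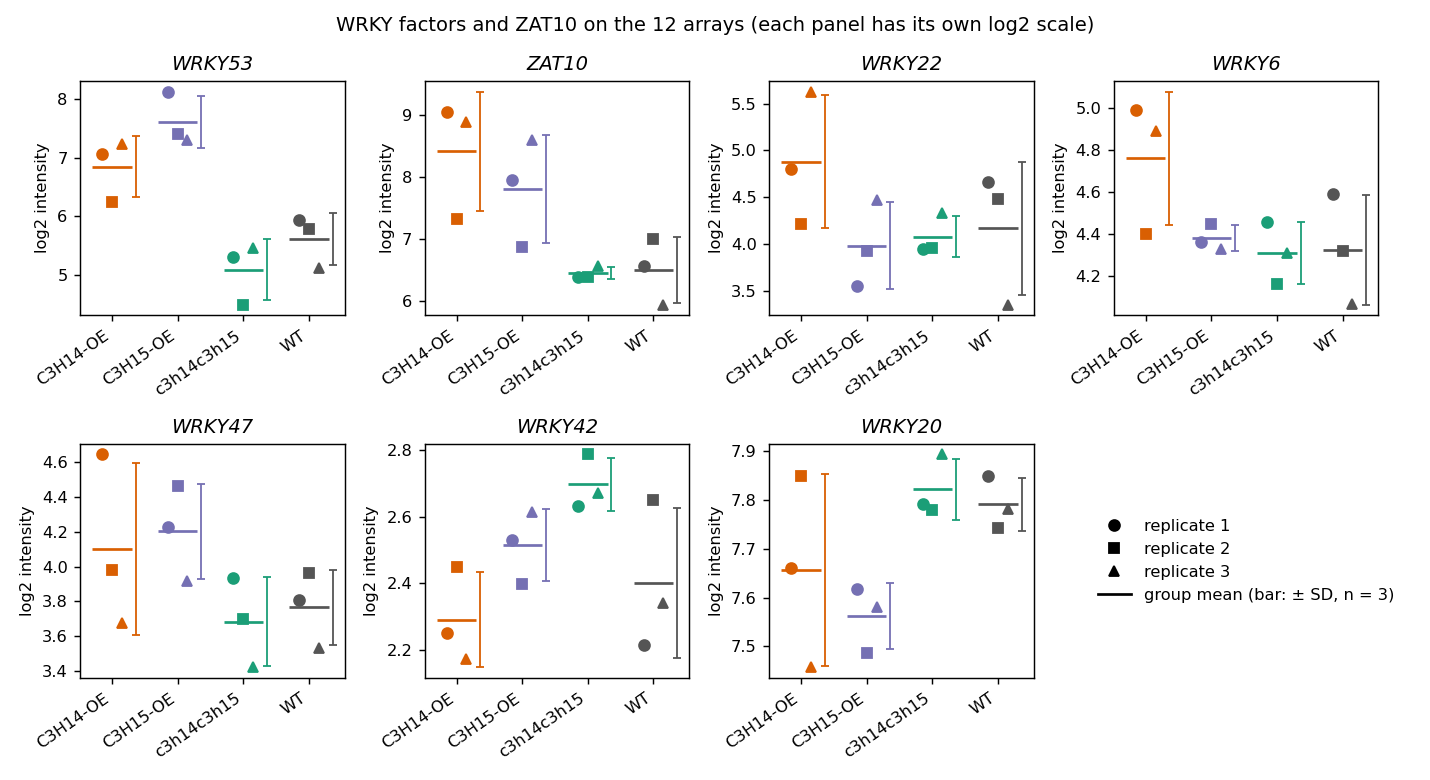
Log2 intensity of the 7 genes on each of the 12 arrays, with 1 panel per gene and its own axis. Points are arrays, shaped by replicate number, horizontal lines are group means and bars are ± SD (n = 3). The C3H15-OE arrays of WRKY53 lie between 7.30 and 8.12, above the arrays of every other group.

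WRKY53 separated the groups most clearly. It read 7.07, 6.25 and 7.22 on the C3H14-OE arrays, 8.12, 7.41 and 7.30 on the C3H15-OE arrays, 5.30, 4.49 and 5.46 on the double mutant arrays, and 5.94, 5.78 and 5.11 on the WT arrays. Every array of both overexpressors lay above every WT and mutant array, while the mutant and WT ranges overlapped. Of all probe sets, 21.3% (C3H14-OE) and 29.6% (C3H15-OE) did not overlap with WT, and 35.2% and 39.4% with the mutant. The group means were 6.85 ± 0.52 in C3H14-OE, 7.61 ± 0.45 in C3H15-OE, 5.08 ± 0.52 in the mutant and 5.61 ± 0.44 in WT (SD, n = 3 each). The order from high to low was thus C3H15-OE, C3H14-OE, WT and mutant.

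WRKY53 rose by 2.0 in C3H15-OE against WT (SE 0.34, 95% interval 1.26 to 2.74, adjusted p = 0.0103). In that comparison 0.651% of all probe sets had a larger change in either direction than WRKY53. The call held in all 21 alternative settings, with log2 fold changes from 1.74 to 2.16 and adjusted p-values from 0.0056 to 0.0455. In C3H14-OE it stood 1.23 above WT (SE 0.34, 95% interval 0.50 to 1.97, adjusted p = 0.199), a comparison in which 0.044% of all probe sets passed. Its arrays did not overlap with those of WT there, which was also true of 21.3% of all probe sets. In the double mutant it stood at -0.53 (SE 0.34, 95% interval -1.27 to 0.21, adjusted p = 0.403), where 5.7% of all probe sets passed.

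Between the transgenic and mutant groups, WRKY53 was higher in C3H15-OE than in the mutant by 2.53 (SE 0.34, adjusted p = 0.00075), and 0.457% of all probe sets had a larger difference. It was higher in C3H14-OE than in the mutant by 1.76 (SE 0.34, adjusted p = 0.00735). Both calls held in all 21 alternative settings. The background is high for these comparisons: 23% of all probe sets passed for C3H15-OE against the mutant and 14.7% for C3H14-OE against the mutant. The direct difference of C3H14-OE from C3H15-OE was -0.76 (SE 0.34, 95% interval -1.50 to -0.03, adjusted p = 0.492), where 0.123% of all probe sets passed. The arrays of the overexpressors did not overlap (at most 7.22 in C3H14-OE and at least 7.30 in C3H15-OE), as was the case for 17.2% of all probe sets, yet the difference did not pass, so neither this pair nor WT and mutant, nor C3H14-OE and WT, can be ordered by the test.

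ZAT10 also had its higher means in both overexpressors, with a wider spread. It read 9.06, 7.32 and 8.89 in C3H14-OE, 7.97, 6.88 and 8.60 in C3H15-OE, 6.40, 6.40 and 6.57 in the mutant, and 6.57, 7.01 and 5.95 in WT. All 3 C3H14-OE arrays lay above all WT arrays, a comparison in which 21.3% of all probe sets did not overlap. C3H15-OE replicate 2 fell inside the WT range. The means were 8.42 ± 0.96 in C3H14-OE, 7.82 ± 0.87 in C3H15-OE, 6.46 ± 0.10 in the mutant and 6.51 ± 0.53 in WT (SD, n = 3 each). The mutant arrays were the closest together of the 4 groups and the C3H14-OE arrays the farthest apart.

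Against WT, ZAT10 stood at 1.92 in C3H14-OE (SE 0.48, 95% interval 0.86 to 2.97, adjusted p = 0.184) and at 1.31 in C3H15-OE (SE 0.48, 95% interval 0.25 to 2.36, adjusted p = 0.123). Neither passed. Of all 22746 probe sets, 85 (0.374%) had a larger change in C3H14-OE than ZAT10, while 10 passed the test. Its spread within groups, an SD of 0.70 pooled over the 4 groups, was larger than that of 98.1% of all probe sets. In the double mutant ZAT10 stood at -0.05 (SE 0.48, 95% interval -1.11 to 1.0, adjusted p = 0.967), an interval that leaves room for a change of about 2-fold either way.

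ZAT10 was higher in C3H14-OE than in the mutant by 1.97 (SE 0.48, adjusted p = 0.0203). This call did not hold in every setting. The adjusted p was 0.074 without C3H14-OE replicate 1, 0.0703 without C3H14-OE replicate 3, 0.0545 without mutant replicate 2, 0.0511 without mutant replicate 3, and 0.0828 with array weights, while the difference stayed between 1.55 and 2.52 in all 21 settings. Without the 3 arrays that stand apart on the first principal component the adjusted p was 0.104. In C3H15-OE it stood 1.36 above the mutant without passing (SE 0.48, adjusted p = 0.0623), though the arrays did not overlap, as was the case for 39.4% of all probe sets. It did pass there in 4 of 21 settings. These were without C3H15-OE replicate 2 (1.83, adjusted p = 0.0253), without C3H14-OE replicate 2, which enters only through the shared variance (1.36, adjusted p = 0.0273), without the dimmest 40% of probe sets (adjusted p = 0.0493) and with only the arrays compared (adjusted p = 0.0493). The difference of C3H14-OE from C3H15-OE was 0.61 (SE 0.48, 95% interval -0.45 to 1.66, adjusted p = 0.769).

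**Figure D2:**
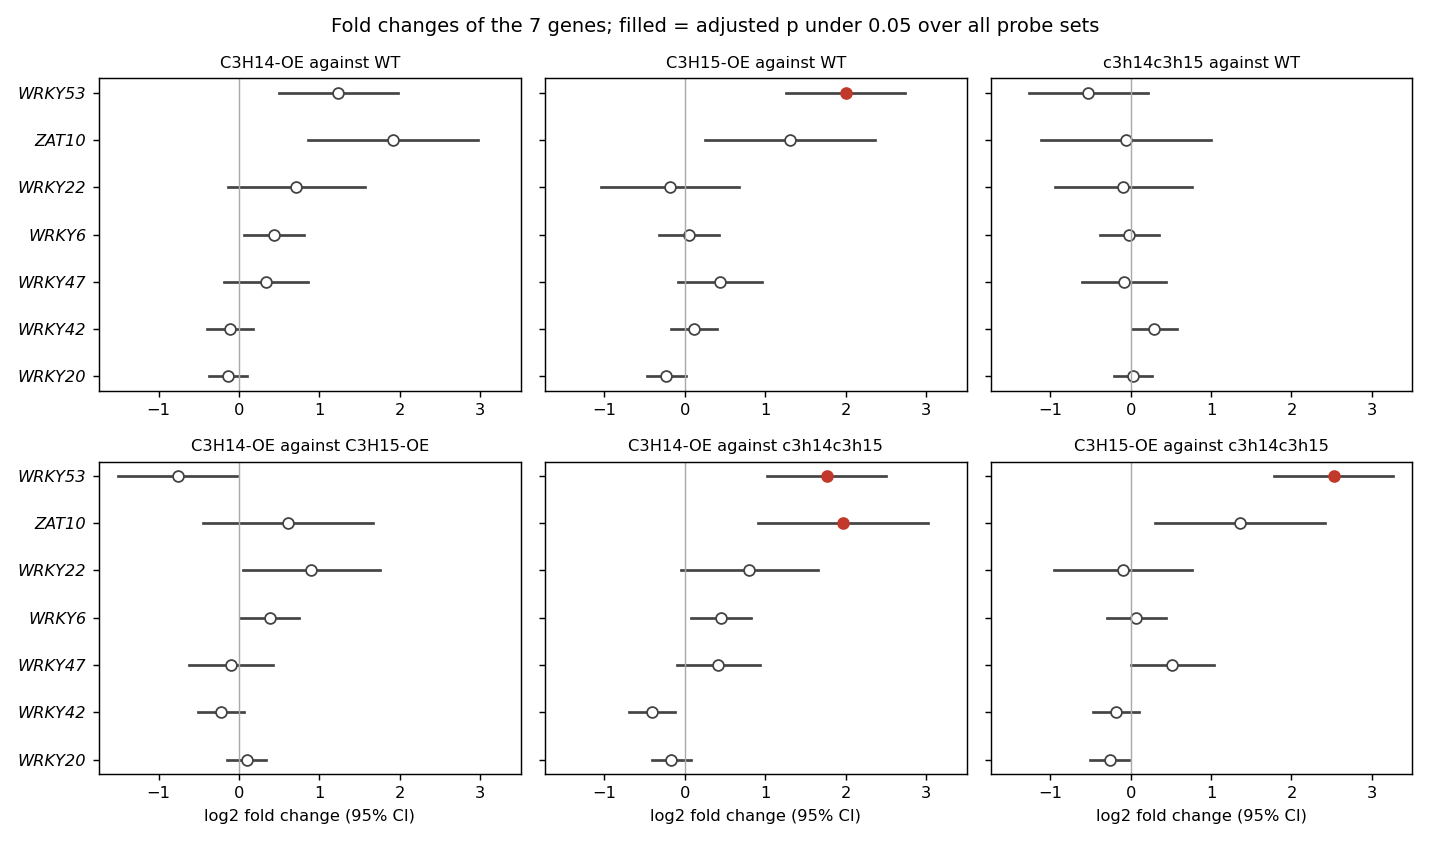
Log2 fold changes of the 7 genes (horizontal axis) with 95% intervals from the moderated fit, 1 panel per comparison. Filled points passed the test over all probe sets: WRKY53 in 3 panels and ZAT10 in 1.

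WRKY22, the flagellin-pathway member, was dim and variable. It read 4.80, 4.21 and 5.63 in C3H14-OE, 3.55, 3.92 and 4.47 in C3H15-OE, 3.94, 3.96 and 4.33 in the mutant, and 4.67, 4.48 and 3.35 in WT, against array medians of 5.65 to 5.84 over all probe sets. Its ranges overlapped between all groups, and its pooled SD of 0.56 exceeded that of 96.6% of all probe sets. It stood at 0.71 in C3H14-OE against WT (SE 0.39, adjusted p = 0.436), at -0.18 in C3H15-OE (SE 0.39, adjusted p = 0.82) and at -0.09 in the mutant (SE 0.39, adjusted p = 0.93). Its widest gap between groups was 0.90 for C3H14-OE over C3H15-OE (SE 0.39, adjusted p = 0.482). The highest reading, 5.63, came from C3H14-OE replicate 3.

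The 3 subgroup IIb genes did not share a direction. WRKY6 read 4.99, 4.40 and 4.89 in C3H14-OE, 4.36, 4.45 and 4.33 in C3H15-OE, 4.45, 4.16 and 4.31 in the mutant, and 4.59, 4.32 and 4.07 in WT. Only the C3H14-OE mean stood off, by 0.43 from WT (SE 0.17, adjusted p = 0.305) and by 0.45 from the mutant (SE 0.17, adjusted p = 0.0933), and its arrays overlapped with both groups. Its difference from the mutant passed without C3H14-OE replicate 2, the lowest of its 3 arrays (0.63, adjusted p = 0.0332). In C3H15-OE WRKY6 differed from WT by 0.05 (SE 0.17, 95% interval -0.32 to 0.42, adjusted p = 0.887).

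WRKY42 was the dimmest of the 7, with array values between 2.17 and 2.79, far below the array medians. Its group means were 2.29 ± 0.14 in C3H14-OE, 2.51 ± 0.11 in C3H15-OE, 2.70 ± 0.08 in the mutant and 2.40 ± 0.23 in WT (SD, n = 3 each). The mutant was its highest group, as it was for WRKY20. The mutant arrays, at 2.63 to 2.79, lay above those of both overexpressors and overlapped with WT. The highest C3H15-OE array, at 2.61, was close to the lowest mutant array. Of all probe sets, 35.2% did not overlap between C3H14-OE and the mutant, and 39.4% between C3H15-OE and the mutant. Its largest difference, -0.41 for C3H14-OE against the mutant (SE 0.13, adjusted p = 0.0553), fell short of the threshold. It passed without WT replicate 1 (adjusted p = 0.0499) or WT replicate 2 (0.0334), which enter only through the shared variance, and with an intensity trend and robust eBayes (0.041).

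WRKY47 read 4.65, 3.98 and 3.68 in C3H14-OE, 4.23, 4.46 and 3.91 in C3H15-OE, 3.93, 3.70 and 3.42 in the mutant, and 3.80, 3.96 and 3.53 in WT. It averaged 4.1 ± 0.50 in C3H14-OE, 4.20 ± 0.27 in C3H15-OE, 3.68 ± 0.26 in the mutant and 3.77 ± 0.22 in WT (SD, n = 3 each). Its overexpressor means were both above WT and mutant, but its ranges overlapped between all groups. The differences from WT were 0.34 in C3H14-OE (SE 0.24, adjusted p = 0.545) and 0.44 in C3H15-OE (SE 0.24, adjusted p = 0.285), and the widest difference was 0.52 for C3H15-OE against the mutant (SE 0.24, adjusted p = 0.136).

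WRKY20, of group I, was bright and the steadiest of the 7. It read 7.66, 7.85 and 7.46 in C3H14-OE, 7.62, 7.49 and 7.58 in C3H15-OE, 7.79, 7.78 and 7.89 in the mutant, and 7.85, 7.74 and 7.78 in WT. It averaged 7.66 ± 0.20 in C3H14-OE, 7.56 ± 0.07 in C3H15-OE, 7.82 ± 0.06 in the mutant and 7.79 ± 0.05 in WT (SD, n = 3 each). Its pooled SD of 0.11 was larger than that of only 11.8% of all probe sets. The C3H15-OE arrays (7.49 to 7.62) lay below all WT arrays (7.74 to 7.85), by 0.23 on average (log2 fold change -0.23, SE 0.11, 95% interval -0.47 to 0.01, adjusted p = 0.224), as non-overlapping as 29.6% of all probe sets in that comparison. Against the mutant the C3H15-OE difference was -0.26 (SE 0.11, adjusted p = 0.108), and it passed after cyclic loess normalization (-0.34, adjusted p = 0.0357). A further WRKY gene on the array, WRKY1, is named ZAP1 in both tables and is no member by symbol. It rose by 0.42 in C3H15-OE (8.23, against 7.81 in WT, SE 0.11, adjusted p = 0.0476), where 6.65% of all probe sets passed. ZAP1 passed in no other comparison: it stood 0.19 above WT in C3H14-OE and 0.18 above WT in the mutant. C3H15-OE stood 0.23 above the mutant (adjusted p = 0.155). The adjusted p for C3H15-OE against WT lies close to the threshold and was not recomputed under other settings.

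Counted together, 0 of the 7 genes passed in C3H14-OE against WT by limma, where 0.044% of all probe sets passed, and 3 (WRKY6, WRKY53 and ZAT10) had an unadjusted p under 0.05, as did 14% of all probe sets. In C3H15-OE 1 of 7 passed against 6.65% of all probe sets. WRKY53 and ZAT10 had an unadjusted p under 0.05 there, as did 24.6% of all probe sets. In the double mutant 0 of 7 passed against 5.7% of all probe sets and 1, WRKY42, had an unadjusted p under 0.05, against 21.8%. The 7 genes had a median log2 fold change of 0.43 for C3H14-OE, 0.11 for C3H15-OE and -0.05 for the mutant, beside -0.04, -0.03 and -0.01 over all probe sets. In C3H14-OE against C3H15-OE 0 of 7 passed, beside 0.123% of all probe sets, and WRKY6, WRKY22 and WRKY53 had an unadjusted p under 0.05, as did 9.79% of all probe sets. Against the double mutant 2 of 7 passed in C3H14-OE, beside 14.7% of all probe sets, and 1 of 7 in C3H15-OE, beside 23%. The 3 comparisons with WT share the WT arrays, and those with the mutant share its arrays.

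**Figure D3:**
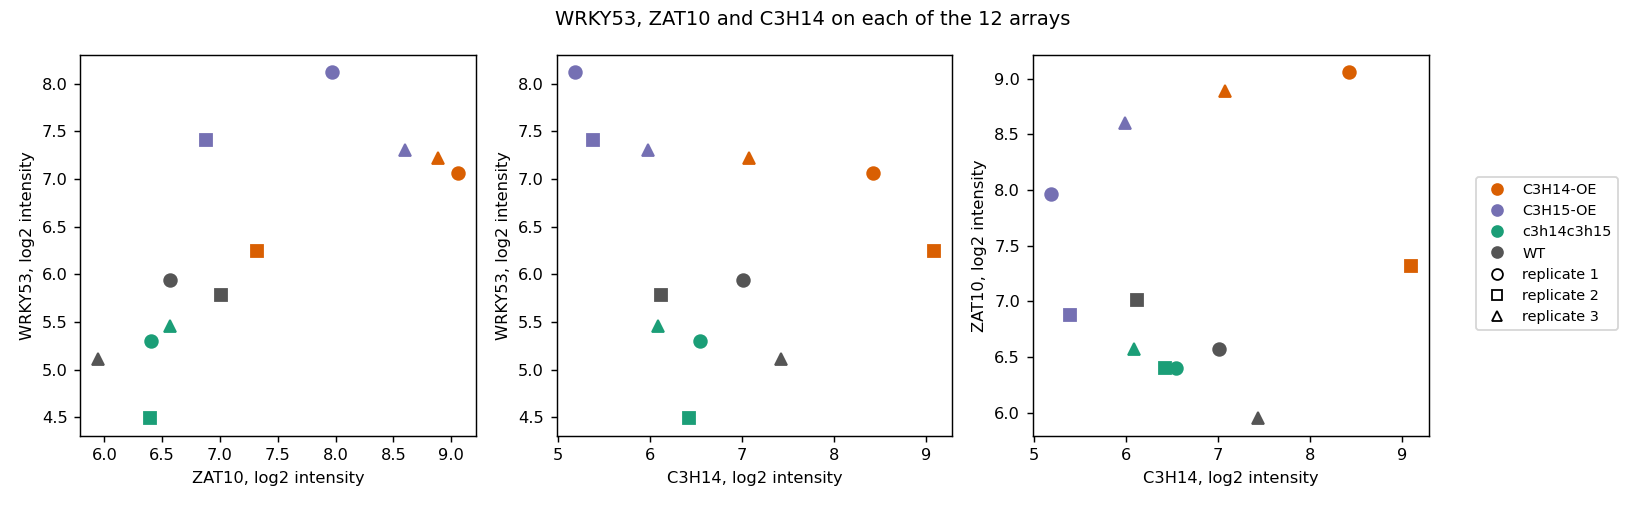
Log2 intensities on each array: WRKY53 against ZAT10 (left), WRKY53 against C3H14 (middle) and ZAT10 against C3H14 (right). Colours are groups and shapes are replicate numbers. The C3H14-OE array with the highest C3H14 reading, 9.10, has the lowest WRKY53 (6.25) and ZAT10 (7.32) of its group.

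C3H14 itself, the targeted gene of one group, read 8.43, 9.10 and 7.07 in C3H14-OE, 5.18, 5.39 and 5.99 in C3H15-OE, 6.55, 6.43 and 6.08 in the mutant, and 7.01, 6.12 and 7.43 in WT. The third C3H14-OE array lay within the WT range for C3H14. Within that group this array read 7.22 for WRKY53 and 8.89 for ZAT10, while the array with the most C3H14 read 6.25 and 7.32. The C3H15-OE arrays, labelled as overexpressing C3H15, had the highest WRKY53 readings and the lowest C3H14 readings. The relation of WRKY53 or ZAT10 to the C3H14 level was not tested. The C3H14 probe set did not pass as higher in C3H14-OE against WT (1.34, adjusted p = 0.258) or as lower in the double mutant against WT (-0.50, adjusted p = 0.583), where the ranges overlapped. It did pass as higher in C3H14-OE against the mutant (1.84, adjusted p = 0.0206), where 14.7% of all probe sets passed. Against C3H15-OE it stood 2.68 higher in C3H14-OE without passing (adjusted p = 0.0553), and 4 probe sets had a larger difference. Where the probe set lies relative to the mutation is not known here, so it may not check the mutant. C3H15 has no named probe set here, so each direction given for an overexpressor group or the mutant rests on its label.

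Over the 12 arrays WRKY53 and ZAT10 had a Pearson correlation of 0.76, and of 0.53 once the group means were removed. WRKY6 and WRKY22 correlated at 0.77 and 0.64 in the same way, and WRKY53 and WRKY20 at -0.75 and -0.21. With group means removed the highest value among all pairs of members was 0.75, for WRKY6 and WRKY53 (0.50 over the 12 arrays). ZAT10 then correlated more with WRKY22 (0.66) than with WRKY53. These values describe 12 arrays that share groups and a common normalization. By the correlation over the 12 arrays, the genes most like WRKY53 among 13354 others were AT2G20142 (0.987), AT5G08240 (0.974), AT5G52450 (0.959), AT3G21790 (0.958) and AT5G47070 (0.954). Being chosen for their likeness to WRKY53 on the same arrays, these genes give no separate evidence of its change. Their log2 fold changes in C3H15-OE against WT were 1.09, 1.81, 1.49, 0.69 and 0.80 in that order. With group means removed AT2G20142 was again among the 5 most similar, at 0.947. The others were AT4G26240 (0.981), AT3G32200 (0.957), AT1G07080 (0.947) and AT1G74270 (0.943). These others stood at 0.11, -0.095, 0.10 and -0.0023 in C3H15-OE against WT, in that order, and did not pass.

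The genes most like ZAT10 were AT1G76600 (0.949), AR781 (0.919), AT4G27280 (0.909), AT2G41640 (0.906) and AT4G24350 (0.904). These were chosen on the same arrays too. AT4G24350 passed in both overexpressors (2.24 in C3H14-OE and 1.44 in C3H15-OE) and AT2G41640 in C3H15-OE (2.38), while the other 3 passed against WT in no group. AR781 and AT4G27280 stayed among the 5 most similar to ZAT10 with group means removed (0.901 and 0.893). No gene was among the 5 nearest to both WRKY53 and ZAT10.

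**Figure D4:**
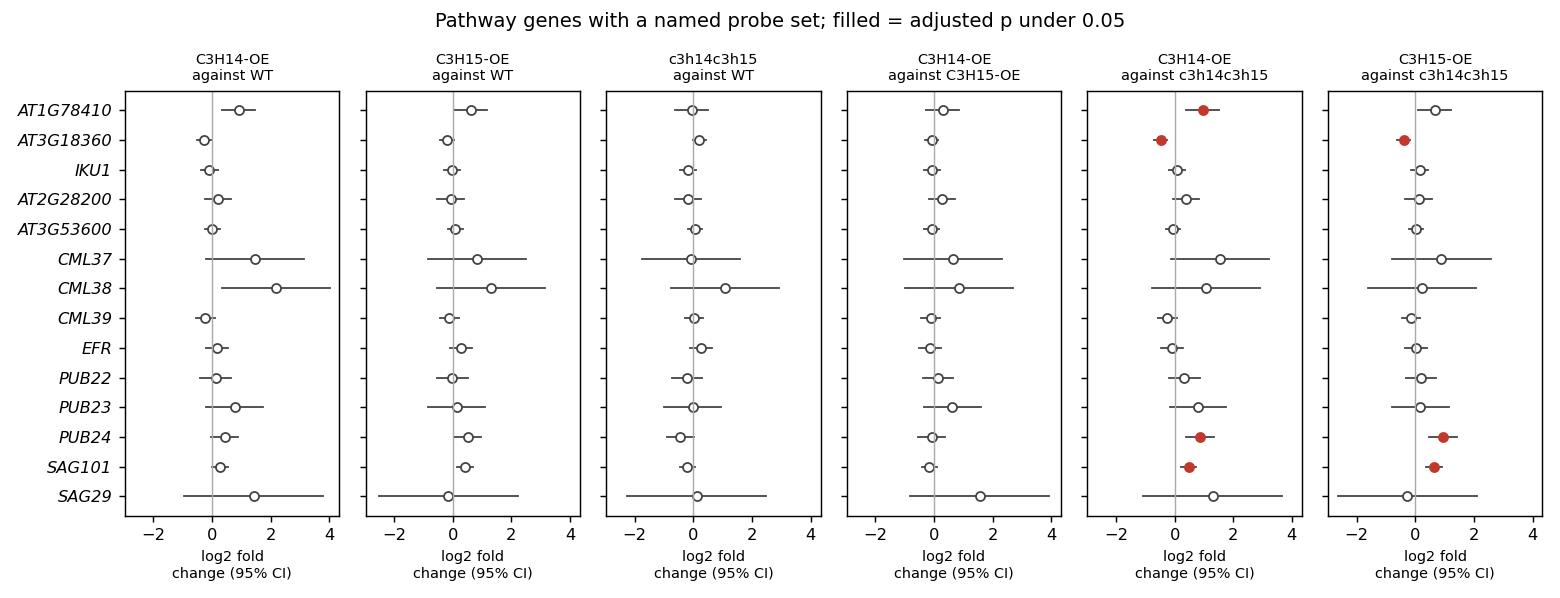
Log2 fold changes with 95% intervals of the 14 pathway genes that have a named probe set, 1 panel per comparison. Filled points passed the test; they appear only in the 2 comparisons of an overexpressor with the double mutant.

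The genes known to act with these factors were thinly covered. Of 95 genes in 8 lists (VQ proteins that bind WRKY factors, the MAP kinases above them, C2H2 zinc fingers related to ZAT10, touch and wound response, pattern-triggered immunity, salicylic acid defence, senescence and camalexin synthesis) 14 had a named probe set, and the MAP kinase and camalexin lists had 0. Against WT 0 of the 14 passed by limma for C3H14-OE, C3H15-OE or the mutant, where 0.044%, 6.65% and 5.7% of all probe sets passed in that order. An unadjusted p under 0.05 was reached by 4, 3 and 0 of the 14, against 14%, 24.6% and 21.8% of all probe sets. Their median log2 fold changes were 0.24, 0.11 and -0.04 in the same groups, against -0.04, -0.03 and -0.01 over all probe sets.

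Against the double mutant 3 of the 14 were higher and 1 lower in C3H14-OE (background 7.89% higher and 6.86% lower), and 2 were higher and 1 lower in C3H15-OE (background 12.3% and 10.7%). SAG101, a partner of EDS1 in salicylic acid defence and the 1 measured gene of that list of 14, was higher in both, by 0.48 in C3H14-OE (SE 0.12, adjusted p = 0.0242) and by 0.63 in C3H15-OE (SE 0.12, adjusted p = 0.00426). It read 5.08, 5.36 and 5.15 on the C3H14-OE arrays, 5.59, 5.23 and 5.23 on the C3H15-OE arrays, 4.65, 4.74 and 4.76 on the mutant arrays and 4.82, 5.0 and 4.94 on the WT arrays. Neither overexpressor overlapped with WT or the mutant. Of all probe sets, 21.3% (C3H14-OE) and 29.6% (C3H15-OE) did not overlap with WT, and 35.2% and 39.4% with the mutant. Against WT, SAG101 did not pass in limma (adjusted p = 0.347 in C3H14-OE and 0.0577 in C3H15-OE). PUB24, a U-box ubiquitin ligase that dampens pattern-triggered immunity, was higher than in the mutant by 0.87 in C3H14-OE (SE 0.21, adjusted p = 0.0204) and by 0.95 in C3H15-OE (SE 0.21, adjusted p = 0.00888), the only one of the 4 measured genes of its list to pass.

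Of the 3 measured VQ proteins, AT1G78410 was 0.96 higher in C3H14-OE than in the mutant (adjusted p = 0.0289), and AT3G18360 was lower in C3H14-OE (-0.48, adjusted p = 0.0126) and in C3H15-OE (-0.39, adjusted p = 0.0197). Both genes were dim, with group means of 3.45 to 4.41 for AT1G78410 and 3.03 to 3.51 for AT3G18360, below the array medians of 5.65 to 5.84. IKU1 did not pass against the mutant in either overexpressor. The C2H2 list had 2 measured genes, AT2G28200 and AT3G53600, and 0 passed in any comparison. They stood at 0.21 and 0.01 in C3H14-OE against WT and at -0.07 and 0.09 in C3H15-OE, and their ranges overlapped with WT in both.

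In the touch and wound list 0 of the 3 measured genes passed. The calmodulin-like sensor CML38 stood at 2.17 in C3H14-OE against WT (SE 0.84, adjusted p = 0.305) and CML37 at 1.47 (SE 0.77, adjusted p = 0.414). Both were highest on 1 array: CML38 read 8.89 and CML37 6.33 on C3H14-OE replicate 3, against 4.99 to 6.31 and 2.35 to 2.83 on the other C3H14-OE arrays. SAG29, the senescence-linked sugar transporter SWEET15, read 9.90 on this array, and 4.42 to 5.59 on the other 11. The same array carried the highest WRKY22 of all 12 and the highest WRKY53 of its group, and the WRKY53 call against the mutant held without it.

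Markers of the stem also differed between the groups. The summed intensity of the 3 named of 14 secondary wall markers was 718 to 854 in C3H14-OE, 385 to 877 in C3H15-OE, 2132 to 2784 in the mutant and 1180 to 1371 in WT. That of the 2 named of 5 green tissue markers (LHCB4.1 and SBPASE) was 2969 to 3791 in C3H14-OE, 3347 to 3853 in C3H15-OE, 5693 to 7417 in the mutant and 4443 to 4762 in WT. WRKY53 and ZAT10 thus had their higher means in the overexpressor groups, where these sums were low. In the mutant, where the sums lay above WT, ZAT10 stood at -0.05 and WRKY53 at -0.53 against WT, and neither passed. The part of tissue makeup in their levels was not tested. Principal component 1 took up 44.5% of the variance, and on it the C3H14-OE arrays scored 8.1 to 40.8, the C3H15-OE arrays 27.6 to 48.1, the mutant arrays -57.1 to -18.5 and the WT arrays -31.3 to -5.2. Mutant replicate 1, C3H14-OE replicate 3 and WT replicate 2 stood apart from their groups on it. Without these 3 arrays WRKY53 still passed in the same 3 comparisons and ZAT10 in 0.

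**Figure D5:**
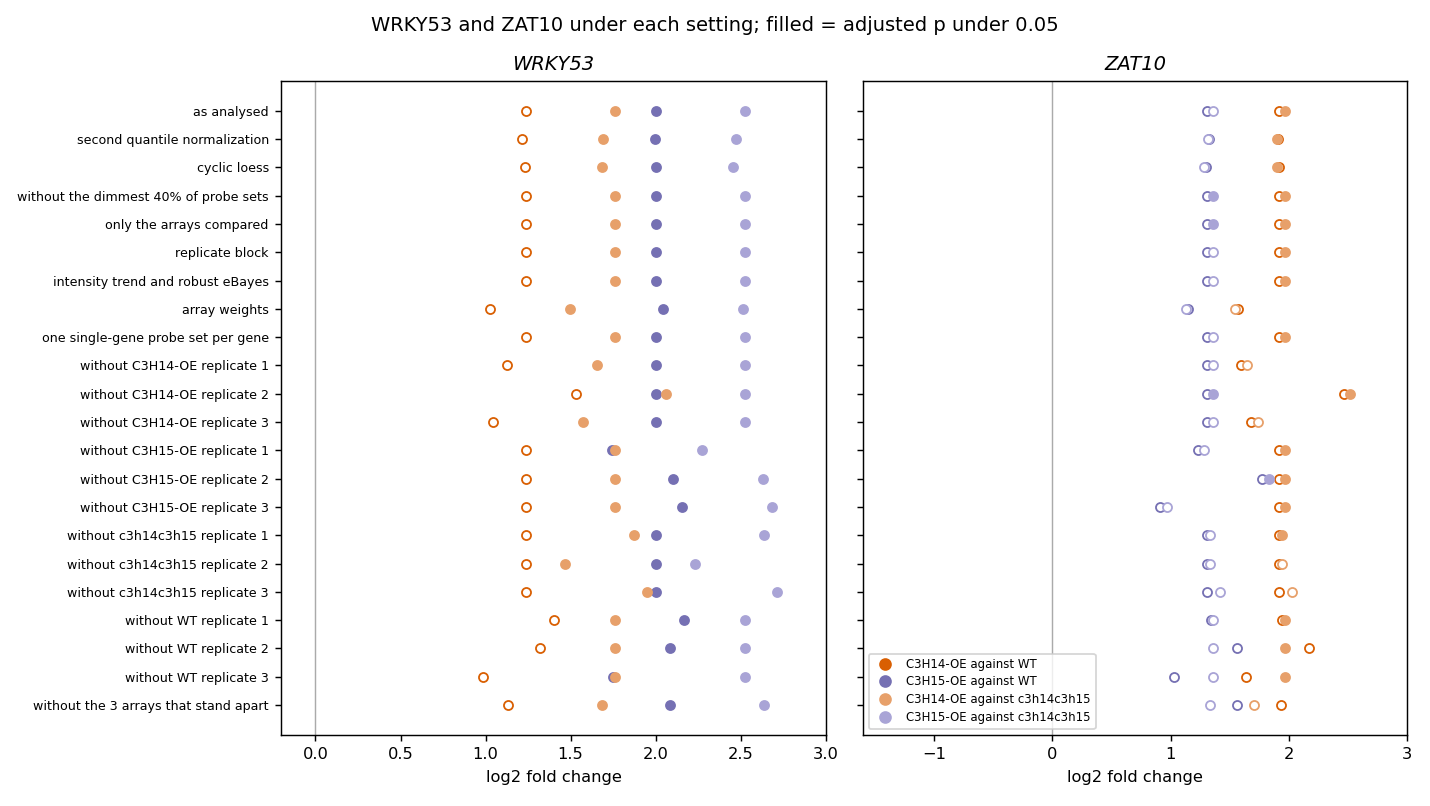
Log2 fold changes of WRKY53 (left) and ZAT10 (right) as analysed and under each of 21 other settings, listed down the axis. Filled points passed the test. WRKY53 keeps its calls in C3H15-OE against WT and in both comparisons with the double mutant in every setting, while ZAT10 passes in C3H14-OE against the mutant in 15 of 21.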

How the data were processed

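Total RNA from 12 stem samples was labelled with a 3′ IVT kit from 200 ng each and hybridised to 1 Affymetrix array per sample, per the labels' protocols. The authors made the deposited intensity values with RMA, per the submitters' processing notes (version and settings not given in the sources used here). They lie on a linear scale, so log2 was taken of each deposited value. Of 22810 probe sets, 64 controls were left out and 22746 tested, with no filter on dim signals. Genes were named from the platform annotation (13513 single-gene probe sets, 503 with several genes, 8730 unnamed here), with 13436 matched to RefSeq TAIR10.1. No sequence tables were used here, so none is shown.

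Limma 3.58.1 under R 4.3.3 fitted 1 mean per group to all 12 arrays (8 residual and 3.61 prior degrees of freedom), with 6 contrasts. Adjusted p-values are Benjamini-Hochberg over all 22746 probe sets, threshold 0.05; intervals are 95% from the moderated fit. On simulated data for C3H15-OE against WT with independent noise, the fit recovered 67.5% of 200 probe sets changed 2-fold and 97.5% changed 4-fold among 22746, with 5 and 8 false calls. In the data 1513 probe sets passed there. The spread within groups was larger for WRKY53 and ZAT10 than for 95.1% and 98.1% of all probe sets. The simulated rates are therefore not rates for these genes. The number of arrays limits the precision; arrays correlated at 0.953 to 0.995 and none were identical. The replicate numbers were not treated as pairs, as the labels do not say that a number marks a shared batch. Within-group deviations correlated over 0.1 in 4 of 18 same-numbered pairs. Pairs with different numbers were not counted, so this value does not decide the question.

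The 7 genes and the lists were chosen with earlier results of these data known; list genes were matched by locus and are named only as the tables name them. Named genes are all 7 members, list genes past the threshold (up to 4 a list, otherwise up to 2 by size), and the 5 genes most correlated with WRKY53 and with ZAT10. WRKY1 (ZAP1) and the genes tied to C3H14-OE replicate 3 were added after their values were seen. Alternatives were other normalizations, a filter leaving out the dimmest 40%, a fit to the compared arrays alone, a block for replicate number, a variance trend, array weights, 1 probe set per gene, each array left out, and, added after seeing the data, 3 arrays left out.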

Additional observations from a re-analysis of the deposited data

How the results depend on the processing

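Across 21 alternatives per comparison, the number of the 7 genes that passed stayed at 0 for C3H14-OE against WT, the double mutant against WT and C3H14-OE against C3H15-OE, and at 1 for C3H15-OE against WT. For C3H15-OE against the mutant it was 2 after cyclic loess, without the dimmest 40% of probe sets and with only the arrays compared, and 1 to 2 when single arrays were left out. For C3H14-OE against the mutant it was 1 with array weights and without the 3 arrays that stand apart. It was 3 with an intensity trend and robust eBayes, and 1 to 3 when single arrays were left out. The share of all probe sets that passed ranged, with single arrays left out, from 0.0044% to 0.246% for C3H14-OE against WT, 0.98% to 8.88% for C3H15-OE against WT and 1.59% to 6.3% for the mutant against WT. With the replicate number as a block the counts in the 6 comparisons were 0, 1, 0, 0, 2 and 1, as without it. WRKY53 in C3H15-OE against WT had a limma adjusted p of 0.0135 with this block. By within-group deviations, 3 of 12 arrays correlated best across groups with an array of their own number. No chance level was computed for that count.

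Signs changed only for differences that did not pass. ZAT10 in the mutant against WT was 0.012 after a second quantile normalization, 0.017 after cyclic loess, 0.019 with array weights, 0.23 without the 3 arrays and -0.33 to 0.20 with single arrays left out. Without the 3 arrays WRKY42 in C3H14-OE against WT was 0.074, WRKY22 in the mutant against WT 0.14, and WRKY47 in C3H14-OE against C3H15-OE 0.11. With single arrays left out, the ranges in the mutant against WT were -0.15 to 0.12 for WRKY6, -0.0049 to 0.060 for WRKY20, -0.50 to 0.16 for WRKY22 and -0.21 to 0.049 for WRKY47. In C3H15-OE against WT they were -0.075 to 0.19 for WRKY6 and -0.59 to 0.065 for WRKY22, and against the mutant -0.0028 to 0.14 and -0.34 to 0.12. WRKY42 in C3H14-OE against WT ran from -0.21 to 0.014. In C3H14-OE against C3H15-OE WRKY20 ran from -0.0027 to 0.19 and WRKY47 from -0.37 to 0.11. The filter on dim probe sets gave values for WRKY20, WRKY53 and ZAT10, and left out the other 4 genes. The cause of these shifts was not tested.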

Other observations

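The genes next to the 7 members in the RefSeq order were added after values had been seen, and 8 of 14 such neighbours had a named probe set. AT4G23820, the gene after WRKY53, moved the other way: it read 6.35, 6.74 and 5.41 in C3H14-OE, 5.36, 5.60 and 5.43 in C3H15-OE, 6.53, 9.08 and 8.49 in the mutant, and 8.44, 7.93 and 8.86 in WT. All overexpressor arrays but 1 lay below every mutant and WT array; C3H14-OE replicate 2 lay above mutant replicate 1. AT4G23820 fell by 2.94 in C3H15-OE against WT (limma SE 0.54, adjusted p = 0.0133) and stood at -2.24 in C3H14-OE (SE 0.54, adjusted p = 0.172). AT4G23800, the measured gene before WRKY53, stood at 0.08 in C3H15-OE against WT (adjusted p = 0.819). The gene after WRKY42, AT4G04460, also fell in C3H15-OE against WT (-1.54, limma SE 0.35, adjusted p = 0.0275) and was lower than in the mutant in both overexpressors (-1.32 in C3H14-OE, adjusted p = 0.0271, and -1.97 in C3H15-OE, adjusted p = 0.00274). WRKY42 itself did not pass in these comparisons. Of all probe sets, 6.65% passed in C3H15-OE against WT, 14.7% in C3H14-OE against the mutant and 23% in C3H15-OE against the mutant. Apart from AT4G23820 and AT4G04460, the measured neighbours passed in none of the 6 comparisons.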
